A study of Mus musculus with 24 samples.

Results

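The mitochondrial genome genes of ID8 cells were described here. They are the 37 genes that the deposited table places on the mitochondrial chromosome, of 24614 genes in all, and comprise 13 mRNAs, 2 rRNAs and 22 tRNAs. ID8 is a mouse ovarian cancer line, and every cell in the series was a double knockout of Trp53, a tumour suppressor gene, and Brca2, a DNA repair gene. The series asked how loss of Ifnar1, a chain of the type I interferon receptor, alters gene expression with and without interferon beta (IFN beta). The groups were clone 2CD7 (Ifnar1 KO) with IFN beta and untreated (UT), clone 1CF10 (Ifnar1 KO) with IFN beta and untreated, CRISPR empty vector cells (EV) with IFN beta and untreated, and untransfected cells (WT) with IFN beta and untreated. Treated cells were given recombinant murine IFN beta at 10000 IU/ml for 3 h. Each knockout line is 1 clone, so a difference between a clone and a control line belongs to that clone and cannot be ascribed to Ifnar1 from that clone alone. Each of the 8 groups held 3 libraries. The labels call them technical replicates of a single treatment date, and the p-values below therefore cover technical spread and no variation between cultures or days.

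Mitochondrial DNA is transcribed from both strands into long precursors, and most mRNAs and rRNAs are released from them by cutting out the tRNAs that lie between. Most of the mRNAs are then given short poly(A) tails. The mRNAs encode core subunits of the respiratory chain and of the ATP synthase, whose other subunits are nuclear genes translated in the cytosol and imported. The rRNAs and tRNAs serve the mitochondrial ribosome. Interferon has been described to lower mitochondrial mRNAs in some cell lines.

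The libraries counted tags primed at poly(A) with unique molecular identifiers (UMIs), which count molecules. Such tags favour RNA with a poly(A) tail, so counts of tRNA and rRNA genes are tags that lie in those genes and are no measure of mature tRNA or rRNA. The 24 libraries held 1972192 to 3097331 UMIs, with a median of 2512964. Of the 37 genes, 21 passed the filter on low counts: all 13 mRNAs, both rRNAs and 6 tRNAs (mt-Ti, mt-Tm, mt-Tw, mt-Td, mt-Tt and mt-Tp). The other 16 tRNA genes had 2 to 124 UMIs each over all libraries and were not tested. Markers of mesothelial and surface epithelial cells, the lineage of ID8, were all counted, at a summed 2397 to 4029 CPM (UMIs per 1000000 UMIs of the library). Of the leukocyte markers 3 of 12 were in the table, at a summed 0 to 0.7 CPM, and of the endothelial markers 4 of 6, at 0 to 1.9 CPM. Ifnar1 tags remained, at 4.33 to 12.5 CPM in libraries of the clones and 8.94 to 16.7 CPM in those of the controls, and tags near the 3′ end do not check an edit elsewhere in the gene. With IFN beta, 0 of 11698 tested genes passed the test in either clone, against 590 in EV and 793 in WT.

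The sequences below carry the 2 results that depend on how tags were assigned. Tags in mt-Ti (isoleucine tRNA) and mt-Tm (methionine tRNA) differed between lines, and their capitals mark the anticodon. mt-Ti starts inside the last bases of mt-Nd1 (2751 to 3707), and mt-Tm ends at the base before mt-Nd2 (3914 to 4951), all on the plus strand. The sequences of mt-Co2 and mt-Co3 are stretches of 60 bases near the 3′ end, where poly(A)-primed tags fall, each with its copies in nuclear DNA. Capitals there mark bases that differ from the mitochondrial gene. All are from GENCODE M21 transcripts on GRCm38.
mt-Ti, chrM:3706-3774, plus strand: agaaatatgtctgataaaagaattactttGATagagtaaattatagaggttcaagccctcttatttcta
mt-Tm, chrM:3845-3913, plus strand: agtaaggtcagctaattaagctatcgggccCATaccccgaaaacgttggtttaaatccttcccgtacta
mt-Co2, chrM:7631-7690, plus strand: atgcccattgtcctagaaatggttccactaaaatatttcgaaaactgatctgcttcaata
Gm28661, chr1:24614888-24614947, minus strand: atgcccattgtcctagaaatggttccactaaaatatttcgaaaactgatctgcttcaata
Gm13341, chr2:22587297-22587356, minus strand: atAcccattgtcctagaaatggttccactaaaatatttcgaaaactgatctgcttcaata
mt-Co3, chrM:9325-9384, plus strand: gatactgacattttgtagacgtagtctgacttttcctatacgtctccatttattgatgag
Gm28437, chr1:24613194-24613253, minus strand: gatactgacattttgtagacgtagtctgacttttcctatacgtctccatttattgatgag
Of these 60 bases, 0 differed between mt-Co2 and Gm28661, 1 between mt-Co2 and Gm13341, and 0 between mt-Co3 and Gm28437. A tag from the stretches of mt-Co2 and Gm28661, or of mt-Co3 and Gm28437, cannot be given to the mitochondrial gene or to that copy by sequence.

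The copies took more UMIs than the 9 mRNAs they resemble. A total of 11 nuclear pseudogenes matched a mitochondrial mRNA over at least 200 bases at 95% identity or more, 7 of them in a cluster on chromosome 1 (24611535 to 24616197, minus strand), 3 on chromosome 2 and 1 on chromosome 13. Together they held 495003 UMIs. Gm28437 held 265485 UMIs against 61315 in mt-Co3, which is 4.33 per mt-Co3 UMI, and the ratio stayed between 4.1 (treated EV library 2) and 4.61 (treated 2CD7 library 1) over 24 libraries. Gm10925 held 3.98 UMIs per mt-Atp6 UMI (3.71 to 4.27), and Gm28661 held 2.88 per mt-Co2 UMI (2.77 to 3.06). The ratios for these 3 genes were thus nearly the same in every line and treatment. Gm28438 held 5.21 per mt-Nd3 UMI (4.06 to 6.85) and Gm10222 held 10.1 per mt-Nd4l UMI (5.30 to 31.5). The remaining copies held fewer UMIs than their gene, except Gm29216, which matches the last part of mt-Co1 and held 1.96 per mt-Co1 UMI (1.23 to 3.85). Nd1, Cytb, Nd6 and Atp8 had no such copy. The sources used here do not say how the authors shared tags that match several places, so the levels of the 9 mRNAs with copies are uncertain, and results are also given with copies summed in, a choice made after seeing the data.

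**Figure D1:**
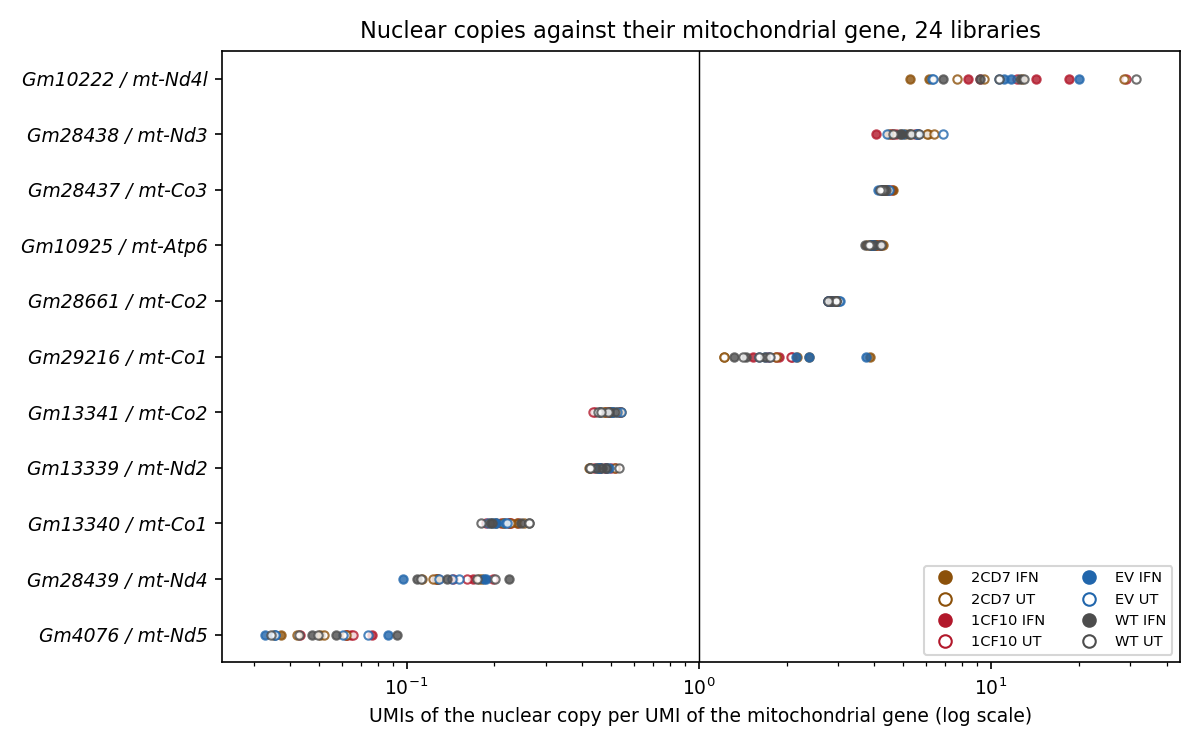
UMIs of each near-identical nuclear copy per UMI of its mitochondrial gene (log axis), with a point for each of 24 libraries coloured by line and filled for IFN beta. The copies of mt-Co3, mt-Atp6 and mt-Co2 on chromosome 1 held 2.77 to 4.61 UMIs per mitochondrial UMI in every library, and the ratio for Gm10222 and mt-Nd4l ran widest, from 5.30 to 31.5.

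Mitochondrial genome genes held 1.15% to 1.82% of the UMIs of a library. The share of all 37 genes was 1.47% ± 0.255 in treated and 1.36% ± 0.140 in untreated 2CD7 (SD, n = 3 here and for all means below). It was 1.29% ± 0.229 in treated and 1.26% ± 0.0585 in untreated 1CF10. In the controls it was 1.47% ± 0.126 in treated and 1.44% ± 0.0266 in untreated EV, and 1.63% ± 0.228 in treated and 1.58% ± 0.141 in untreated WT. The large rRNA mt-Rnr2 alone took 38.0% to 54.7% of these UMIs, and the sums of all 37 genes overlapped between the treated lines. Untreated 1CF10 (1.22% to 1.33%) lay below untreated EV (1.42% to 1.47%) and WT (1.47% to 1.74%). The 13 mRNAs held 0.497% ± 0.0276 of UMIs in treated 1CF10 and 0.733% ± 0.0383 in treated WT. Untreated 1CF10 held 0.512% ± 0.0343, against 0.604% ± 0.0398 in untreated EV and 0.671% ± 0.078 in untreated WT. Untreated 2CD7 held 0.5915% ± 0.0727, and its libraries (0.529% to 0.671%) overlapped those of untreated 1CF10 (0.489% to 0.551%). Each treated 1CF10 library (0.469% to 0.524%) lay below each treated 2CD7 (0.611% to 0.689%), EV (0.615% to 0.691%) and WT library (0.699% to 0.774%). In bulk cells a lower share cannot be split into fewer mitochondria-rich cells and less RNA per cell, nor into fewer genomes and fewer transcripts per genome.

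**Figure D2:**
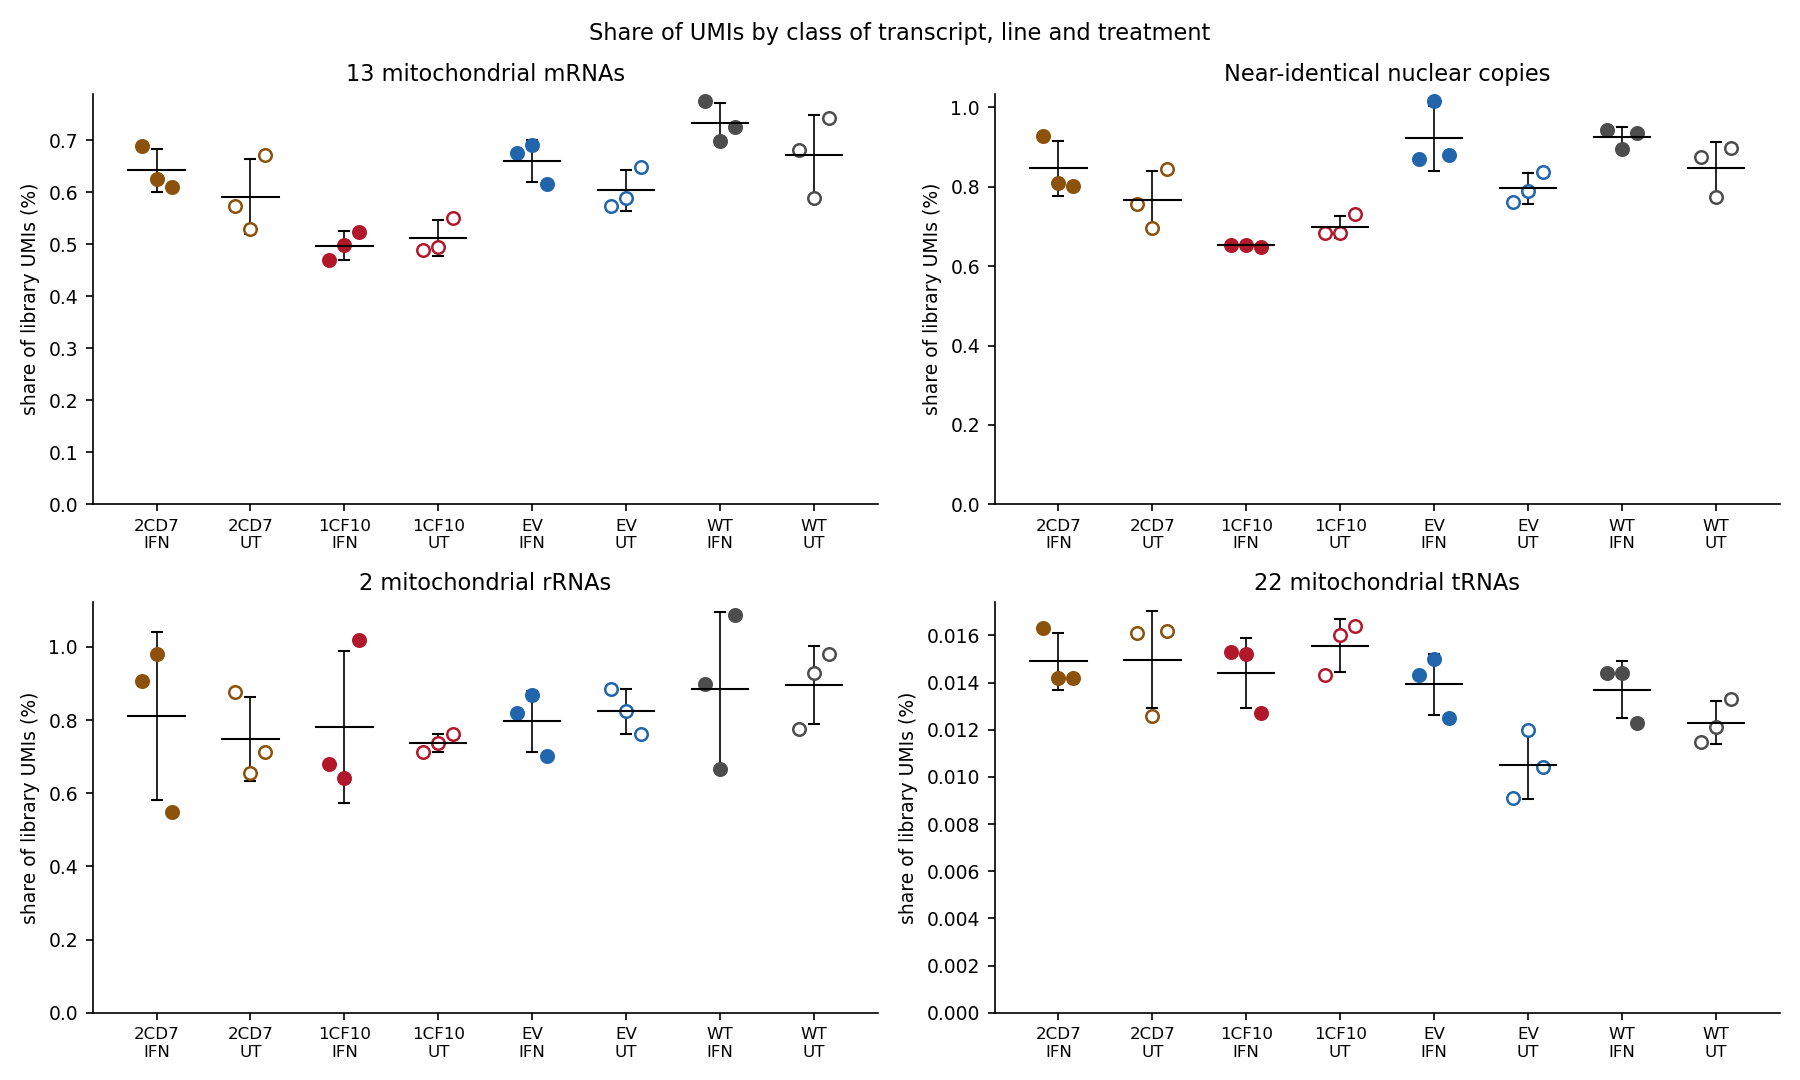
Share of library UMIs (%) in the 13 mitochondrial mRNAs, their 11 near-identical nuclear copies, the 2 rRNAs and the 22 tRNAs, by line, filled for IFN beta and open for untreated, with bars for the mean and SD of 3 libraries. The mRNAs and the copies had their lowest means in 1CF10, whose libraries held 0.469% to 0.551% and 0.648% to 0.732%, and the rRNAs overlapped between all treated groups.

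With IFN beta, most mitochondrial mRNAs were lower in clone 1CF10 than in WT. Against treated WT, 10 of 13 mRNAs were lower and 0 higher at an edgeR adjusted p below 0.05, with a median log2 difference of -0.69 over the 13 mRNAs and 0.0121 over all tested genes. In that comparison 32.0% of all tested genes were called, and 17.2% were called lower. Among the subunits of complex I, the entry enzyme of the chain, mt-Nd4 had 453, 451 and 539.8 CPM in the 3 treated 1CF10 libraries, against 867, 768 and 812 CPM in treated WT. The groups did not overlap, and the lowest treated WT library stood well above the highest treated 1CF10 library. mt-Nd4 differed by -0.86 ± 0.11 (SE) on the log2 scale (edgeR adjusted p = 2.82e-06). mt-Nd2, also of complex I, had 256, 285 and 292 CPM in treated 1CF10, against 405, 437 and 438 CPM in treated WT, again without overlap. Its log2 difference was -0.72 ± 0.08 (edgeR adjusted p = 2.12e-11), and that of mt-Nd1 was -0.63 ± 0.10 (edgeR adjusted p = 8.48e-05).

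The same comparison reached the other complexes. mt-Cytb, the mitochondrial subunit of complex III, had 1348, 1447 and 1451 CPM in treated 1CF10, against 2292, 1879 and 1949 CPM in treated WT. It has no near-identical copy, and its groups did not overlap, with a log2 difference of -0.62 ± 0.12 (edgeR adjusted p = 0.000545). Of complex IV, cytochrome c oxidase, mt-Co2 differed by -0.82 ± 0.12 and mt-Co3 by -0.55 ± 0.09, with edgeR adjusted p = 2.55e-05 and 5.32e-05. mt-Co1, the catalytic subunit, did not pass, at -0.40 ± 0.16 with levels of 207 ± 41.2 CPM for treated 1CF10 and 257 ± 45.3 CPM for treated WT. mt-Atp6, of the proton channel of the ATP synthase, differed by -0.69 ± 0.10 (edgeR adjusted p = 1.4e-05). These 7 called genes (Nd1, Nd2, Nd4, Cytb, Co2, Co3, Atp6) stayed below the threshold when any of the 6 libraries was left out. The lineage markers moved with this comparison: 6 of 7 tested mesothelial and surface epithelial markers were lower and 1 higher in treated 1CF10 than in treated WT, with a median log2 difference of -0.51. Among all tested genes 17.2% were lower. In treated EV, 5 markers were lower and 1 higher than in treated WT (median -0.44, 10.4% of all tested genes lower). In treated 2CD7, 4 were lower and 0 higher (-0.18, 8.31% lower). Between treated 1CF10 and treated EV, 2 were higher and 2 lower in 1CF10 (median 0.045, 8.05% higher and 11.0% lower among all tested genes). The summed level of the markers was 2397 to 2569 CPM in treated 1CF10, against 3117 to 3341 in treated 2CD7, 2959.7 to 3087 in treated EV and 3781 to 4029 in treated WT. The part of this difference in the mitochondrial result was not tested.

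The other complex I subunits were counted with fewer UMIs, and their calls rested on single libraries. mt-Nd3 differed by -0.46 ± 0.14 (edgeR adjusted p = 0.00914), and the call ended without treated 1CF10 library 3 (-0.38, edgeR adjusted p = 0.0613) or treated WT library 2 (-0.37, edgeR adjusted p = 0.0782). mt-Nd5 differed by -0.78 ± 0.25 (edgeR adjusted p = 0.0212), and lost the call without treated 1CF10 library 1 (-0.64, edgeR adjusted p = 0.0921), treated 1CF10 library 2 (-0.65, edgeR adjusted p = 0.0889) or treated WT library 3 (-0.71, edgeR adjusted p = 0.0742). mt-Nd4l differed by -1.73 ± 0.50 (edgeR adjusted p = 0.00557), which became -1.43 with edgeR adjusted p = 0.0552 without treated WT library 3. Of these genes, mt-Nd4l overlaps the start of mt-Nd4, and mt-Nd5 overlaps mt-Nd6, which lies on the other strand. The sources used here do not give the strand used in counting, so mt-Nd5 and mt-Nd6 are uncertain. mt-Nd6, at 2.82 ± 0.76 CPM in treated 1CF10 and 3.94 ± 1.0 CPM in treated WT, did not pass at -0.53 ± 0.42. mt-Atp8, whose frame overlaps mt-Atp6, did not pass at -0.87 ± 0.63.

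**Figure D3:**
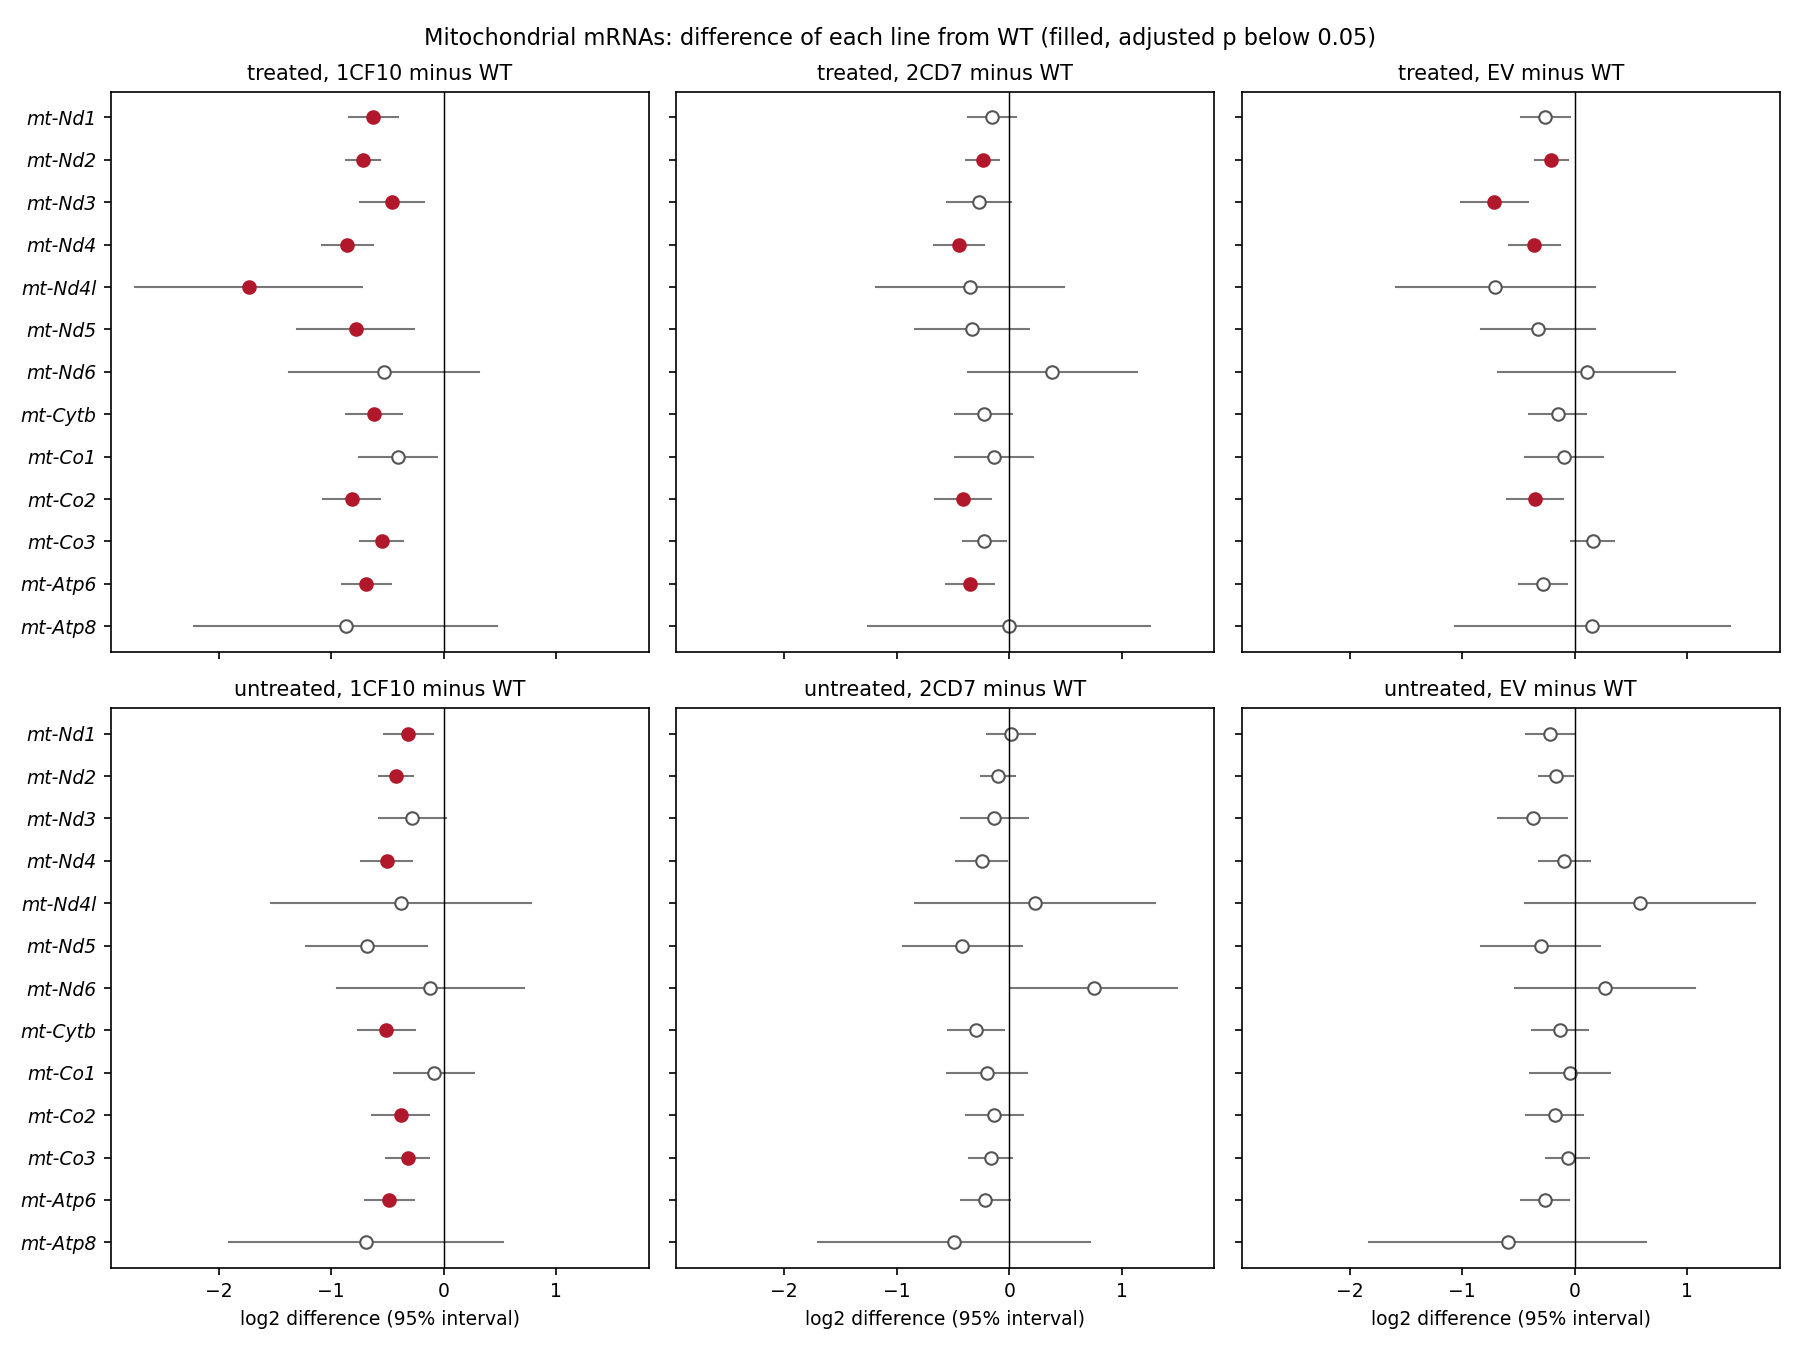
Log2 difference of 1CF10, 2CD7 and EV from WT for the 13 mitochondrial mRNAs, with IFN beta (upper panels) and untreated (lower panels), with 95% intervals of the edgeR fit and filled points at adjusted p below 0.05. All 13 points of treated and of untreated 1CF10 lie below 0, and the intervals of mt-Nd4l, mt-Nd6 and mt-Atp8 are wide.

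Against treated EV, 7 of 13 mRNAs were lower in treated 1CF10 and 0 higher (median log2 difference -0.47, all genes 0.027), where 19.0% of all tested genes were called, 8.05% higher and 11.0% lower. mt-Co3 had 783, 851 and 759 CPM in treated 1CF10, against 1083, 1544 and 1089.8 CPM in treated EV. Treated EV library 2 was far above the other EV libraries, and the groups did not overlap without it either. mt-Co3 differed by -0.71 ± 0.09 (edgeR adjusted p = 3.05e-06), and mt-Nd2, mt-Nd4, mt-Cytb, mt-Co2 and mt-Atp6 by -0.51, -0.50, -0.47, -0.46 and -0.41 with edgeR adjusted p of 4.77e-07, 0.00231, 0.00921, 0.0101 and 0.00768. mt-Nd1 differed by -0.37 ± 0.10 (edgeR adjusted p = 0.0162), and the call ended at -0.32 (edgeR adjusted p = 0.0677) without treated 1CF10 library 1. The comparisons with EV and with WT share the 1CF10 libraries, so they are not independent.

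Untreated 1CF10 also had lower mRNAs than WT. Against untreated WT, 7 of 13 mRNAs were lower and 0 higher (median log2 difference -0.38, all genes -8e-04), with 19.4% of all tested genes called, 8.77% higher and 10.7% lower. mt-Nd2 had 271, 278 and 335 CPM in untreated 1CF10, against 406, 344 and 419.9 CPM in untreated WT, without overlap. mt-Nd2 differed by -0.42 ± 0.08 (edgeR adjusted p = 2.36e-05). mt-Cytb, mt-Nd4 and mt-Atp6 differed by -0.51, -0.51 and -0.49 with edgeR adjusted p of 0.00502, 0.00204 and 0.00165, and these 4 calls held when any of the 6 libraries was left out. mt-Nd1 (-0.32), mt-Co2 (-0.38) and mt-Co3 (-0.32) passed at edgeR adjusted p of 0.0372, 0.0324 and 0.0154, but not in every subset. The number of mRNAs called fell to 4 without untreated 1CF10 library 1 or untreated WT library 3, and to 5 without untreated 1CF10 library 2 or untreated WT library 1. Without untreated 1CF10 library 1, mt-Nd1 was at -0.26, mt-Co2 at -0.32 and mt-Co3 at -0.29, with edgeR adjusted p of 0.127, 0.122 and 0.0584. Without untreated WT library 3 they were at -0.25, -0.25 and -0.29, with edgeR adjusted p of 0.163, 0.172 and 0.0593. Without untreated 1CF10 library 2 or untreated WT library 1, mt-Nd1 was at -0.29 or -0.28 and mt-Co2 at -0.38 or -0.36, with edgeR adjusted p of 0.0891 to 0.119. Of the 7 tested lineage markers, 5 were lower and 1 higher in untreated 1CF10 than in untreated WT (median -0.34), with a summed 2480.5 to 2545 CPM in untreated 1CF10 and 3001 to 3229 CPM in untreated WT. Against untreated EV, 3 were lower and 2 higher in untreated 1CF10 (median -0.04, 6.58% lower and 3.74% higher among all tested genes).

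Against untreated EV, 2 of 13 mRNAs were lower in untreated 1CF10 (median log2 difference -0.26, all genes 0.0144), with 10.3% of all tested genes called, 3.74% higher and 6.58% lower. These were mt-Nd4 at -0.41 ± 0.11 and mt-Nd2 at -0.26 ± 0.08, with edgeR adjusted p = 0.0163 and 0.0182. mt-Nd4 had 482, 462 and 511 CPM in untreated 1CF10, against 614, 619 and 677 CPM in untreated EV. The groups did not overlap, yet neither call was firm. Without untreated 1CF10 library 2 or untreated EV library 3 none of the 13 passed, with mt-Nd4 at -0.40 and -0.37 (edgeR adjusted p = 0.0572 and 0.0604) and mt-Nd2 at -0.23 in both (0.095 and 0.0827). mt-Nd2 alone lost its call without untreated 1CF10 library 1 (-0.20, edgeR adjusted p = 0.136) or untreated EV library 2 (-0.26, edgeR adjusted p = 0.0509). With copies summed in, 4 of 13 mRNAs were lower in this comparison, and the other 3 comparisons of 1CF10 gave 7 (untreated, WT), 8 (treated, EV) and 10 (treated, WT).

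Clone 2CD7 lay nearer to the controls, and above 1CF10. With IFN beta, 7 of 13 mRNAs were higher in 2CD7 than in 1CF10 and 0 lower (median log2 difference 0.41, all genes -0.0068), with 15.2% of all tested genes called and 8.57% called higher. mt-Nd2 had 401, 374 and 358 CPM in treated 2CD7, against 256, 285 and 292 CPM in treated 1CF10, and mt-Nd1 had 1489, 1413 and 1379.7 CPM in treated 2CD7, against 945, 1060.3 and 1155 CPM in treated 1CF10. Neither gene's groups overlapped, and their log2 differences of 0.48 ± 0.08 and 0.47 ± 0.10 kept their calls without any of the 6 libraries (edgeR adjusted p = 3.23e-06 and 0.00313). mt-Nd4, mt-Co2, mt-Cytb, mt-Atp6 and mt-Co3 were higher by 0.41, 0.41, 0.39, 0.34 and 0.33 with edgeR adjusted p of 0.0131 to 0.0332, and each lost its call without 1 library or another. The number called was 2 without treated 1CF10 library 1 and 3 without treated 1CF10 library 2 or 3. Of the 7 tested lineage markers, 5 were higher and 1 lower in treated 2CD7 than in treated 1CF10 (median 0.354). In untreated cells 4 markers were higher and 0 lower in 2CD7 (median 0.284). Among all tested genes 8.57% were higher and 6.64% lower treated, and 7.82% and 5.51% untreated. The part of this marker difference in the mitochondrial result was not tested. Untreated, 2 of 13 mRNAs were higher in 2CD7 than in 1CF10 (13.3% of all tested genes called, 7.82% higher), mt-Nd2 by 0.32 ± 0.08 and mt-Nd1 by 0.33 ± 0.10 with edgeR adjusted p = 0.00172 and 0.0393. mt-Nd1 lost that call without untreated 1CF10 library 1 (0.28, edgeR adjusted p = 0.131), untreated 1CF10 library 2 (0.31, edgeR adjusted p = 0.122) or untreated 2CD7 library 3 (0.20, edgeR adjusted p = 0.169), which left 1 call, and 4 were called without untreated 2CD7 library 2.

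Against the controls, untreated 2CD7 had 0 of 13 mRNAs called. Against EV and WT, 8.96% (4.35% higher) and 3.66% (1.80% higher) of all tested genes were called at the adjusted threshold. The median log2 difference of the mRNAs was 0.045 from EV and -0.163 from WT. At an unadjusted p below 0.05 the edgeR count was 1 against EV and 3 against WT. No share of all genes was taken at that unadjusted threshold. Against WT, 1 mRNA was called without untreated 2CD7 library 3 or untreated WT library 2. Treated 2CD7 had 4 of 13 mRNAs lower than treated WT, where 13.8% of all tested genes were called and 8.31% called lower. The median log2 difference there was -0.24, with 12 of 13 mRNAs negative. mt-Nd4 differed by -0.45 ± 0.11 (edgeR adjusted p = 0.00658), a call kept without any of the 6 libraries, with 716, 579 and 577 CPM in treated 2CD7 and 867, 768 and 812 CPM in treated WT. The calls of mt-Co2 (-0.41), mt-Atp6 (-0.35) and mt-Nd2 (-0.24), at edgeR adjusted p of 0.0246, 0.0234 and 0.023, were all lost without treated 2CD7 library 2 or 3, which left 1 mRNA called, and 2 were called without treated WT library 1, 2 or 3. Against treated EV, with 15.7% of all tested genes called (7.36% higher, 8.37% lower), 1 mRNA was lower in treated 2CD7, mt-Co3 at -0.38 ± 0.09 (edgeR adjusted p = 0.00458). Without treated EV library 2 it was -0.22 and still called, and in a fit of these groups alone it was -0.39 and not called (edgeR adjusted p = 0.241). mt-Nd3 was higher by 0.44 ± 0.15 (edgeR adjusted p = 0.0392), and kept that call only without treated 2CD7 library 1, ranging from 0.36 to 0.47 with edgeR adjusted p of 0.0678 to 0.196 without any of the other 5.

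The controls differed from each other in mt-Nd3, a small complex I subunit. It had 26.6, 29.8 and 31.2 CPM in treated EV, against 42.2, 52.5 and 46.8 CPM in treated WT. No treated EV library reached the lowest treated WT library, and the log2 difference of -0.71 ± 0.15 passed at edgeR adjusted p = 0.000243, also without any of the 6 libraries. With its copy Gm28438 summed in it was -0.60 and stayed called. In all, 4 of 13 mRNAs were lower in treated EV than in treated WT, where 19.3% of all tested genes were called and 10.4% called lower. The median log2 difference of treated EV from WT was -0.26, with 10 of 13 mRNAs negative. The calls of mt-Nd4 (-0.36), mt-Co2 (-0.35) and mt-Nd2 (-0.21), at edgeR adjusted p of 0.0223, 0.0436 and 0.0424, were lost without 4, 6 and 5 of the 6 libraries. The number called was 1 without treated WT library 1 or 3, and 2 without treated WT library 2 or treated EV library 2 or 3. Untreated EV and WT differed in 0 of 13 mRNAs by edgeR at the adjusted threshold, where 14.1% of all tested genes were called (7.11% higher, 6.98% lower). The median log2 difference of untreated EV from WT was -0.165, with 11 of 13 mRNAs negative. At an unadjusted p below 0.05 by edgeR 4 were counted, and no share of all genes was taken there. The number called was 1 without untreated EV library 2 and 3 without untreated WT library 2.

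IFN beta for 3 h lowered no mitochondrial mRNA by the test in any line. In WT, 0 of 13 mRNAs were called by edgeR, where 6.78% of all tested genes were called, 5.16% higher and 1.62% lower. Of the 13, 12 had a positive log2 fold change, and the median was 0.23. By edgeR 5 were at an unadjusted p below 0.05, a threshold at which no share of all genes was taken. DESeq2 called 1, and edgeR called 2 without untreated WT library 3. mt-Nd4 had 867, 768 and 812 CPM in treated WT, against 709, 584 and 745 CPM in untreated WT. Each treated WT library was above each untreated one, and the log2 fold change of 0.32 ± 0.11 did not pass (edgeR adjusted p = 0.094). For mt-Cytb the 95% interval of the fold change was -0.15 to 0.35 in WT and -0.17 to 0.34 in EV, and for mt-Nd1 it was 0.02 to 0.45 in WT and -0.03 to 0.41 in EV. None of these 4 intervals reaches below -0.17. They do not cover the other mRNAs: the lowest log2 fold change among the 13 was -0.38 in WT and -0.21 in EV.

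In EV, 1 of 13 mRNAs was called, higher with IFN beta (5.04% of all tested genes called, 3.89% higher). mt-Co3 had 1083, 1544 and 1089.8 CPM in treated EV, against 1021, 979 and 1045 CPM in untreated EV. Treated library 2 stood far above the other 5, and the log2 fold change of 0.32 ± 0.09 (edgeR adjusted p = 0.0404) became 0.15 with edgeR adjusted p = 0.293 without it. The call was also lost without untreated EV library 1, 2 or 3, at 0.33, 0.32 and 0.35 with edgeR adjusted p = 0.0861, 0.0937 and 0.0552. In clone 1CF10, 0 of 13 mRNAs were called and 0 were at an unadjusted p below 0.05 by edgeR, with a median of -0.08. In clone 2CD7, 0 were called and 1 was at an unadjusted p below 0.05, with a median of 0.105. In either clone 0% of all tested genes were called by edgeR at the adjusted threshold. The response of the clones minus that of the controls was called for 0 of 13 mRNAs (5.15% of all tested genes called, 3.72% lower), with 11 of 13 negative. It was at an unadjusted p below 0.05 by edgeR for 4, where no share of all genes was taken. It was called for 1 without treated EV library 1 or 3. The response of EV minus that of WT was called by edgeR for 0 of 13 (0.0256% of all tested genes called, 0.00855% higher and 0.0171% lower) and for 0 at an unadjusted p below 0.05, and that of 2CD7 minus that of 1CF10 likewise for 0 and 0 (0% called).

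Tags in the methionine tRNA gene mt-Tm differed in the other direction: they were higher in the untreated clones than in the untreated controls. Untreated libraries had 106, 77.1 and 106 CPM in 2CD7 and 91.4, 101 and 106 CPM in 1CF10, against 57.0, 75.9 and 67.1 CPM in EV and 64.9, 73.5 and 75.3 CPM in WT. All 6 clone libraries lay above every control library, 2CD7 library 2 by the least. mt-Tm was higher in untreated 1CF10 by 0.55 ± 0.12 against EV and by 0.46 ± 0.12 against WT, with edgeR adjusted p = 0.00136 and 0.00515. In untreated 2CD7 it was higher by 0.54 ± 0.12 against EV (edgeR adjusted p = 0.00238). These 3 calls held without any of their 6 libraries. Against WT the 2CD7 difference was 0.44 ± 0.12 (edgeR adjusted p = 0.0321), a call kept only without untreated 2CD7 library 2, with 0.36 to 0.49 and edgeR adjusted p of 0.0844 to 0.221 without any of the other 5.

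With IFN beta none of the 6 differences between lines was called for mt-Tm. It had 89.6, 77.3 and 78.5 CPM in treated 2CD7, 100.1, 104 and 81.4 CPM in treated 1CF10, 84.1, 100.1 and 75.6 CPM in treated EV and 86.3, 82.1 and 71.7 CPM in treated WT, and the groups overlapped. The 95% interval of the log2 difference was -0.19 to 0.30 for treated 1CF10 against EV and -0.38 to 0.12 for treated 2CD7 against EV. Within lines the log2 fold change with IFN beta was -0.25 ± 0.12 in 2CD7, -0.08 ± 0.12 in 1CF10, 0.42 ± 0.13 in EV and 0.22 ± 0.13 in WT. The EV change passed (edgeR adjusted p = 0.0404) but not without treated EV library 1 or 2 (0.46 and 0.31, edgeR adjusted p = 0.0656 and 0.293) or untreated EV library 1 or 3 (0.32 and 0.43, edgeR adjusted p = 0.274 and 0.0869). The response of the clones minus that of the controls was -0.49 ± 0.12 (edgeR adjusted p = 0.00801), and it ran from -0.57 to -0.44 without any of the 24 libraries and stayed called. Tags in mt-Tm were also set against 1000 UMIs of the 13 mRNAs with their near-identical nuclear copies summed in. On that scale mt-Tm had 8.28 ± 1.16 UMIs in treated and 8.19 ± 0.38 in untreated 1CF10. It had 5.49 ± 0.099 in treated and 7.08 ± 0.851 in untreated 2CD7. In the controls it had 5.45 ± 0.403 in treated and 4.76 ± 0.651 in untreated EV, and 4.83 ± 0.448 in treated and 4.72 ± 0.625 in untreated WT.

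**Figure D4:**
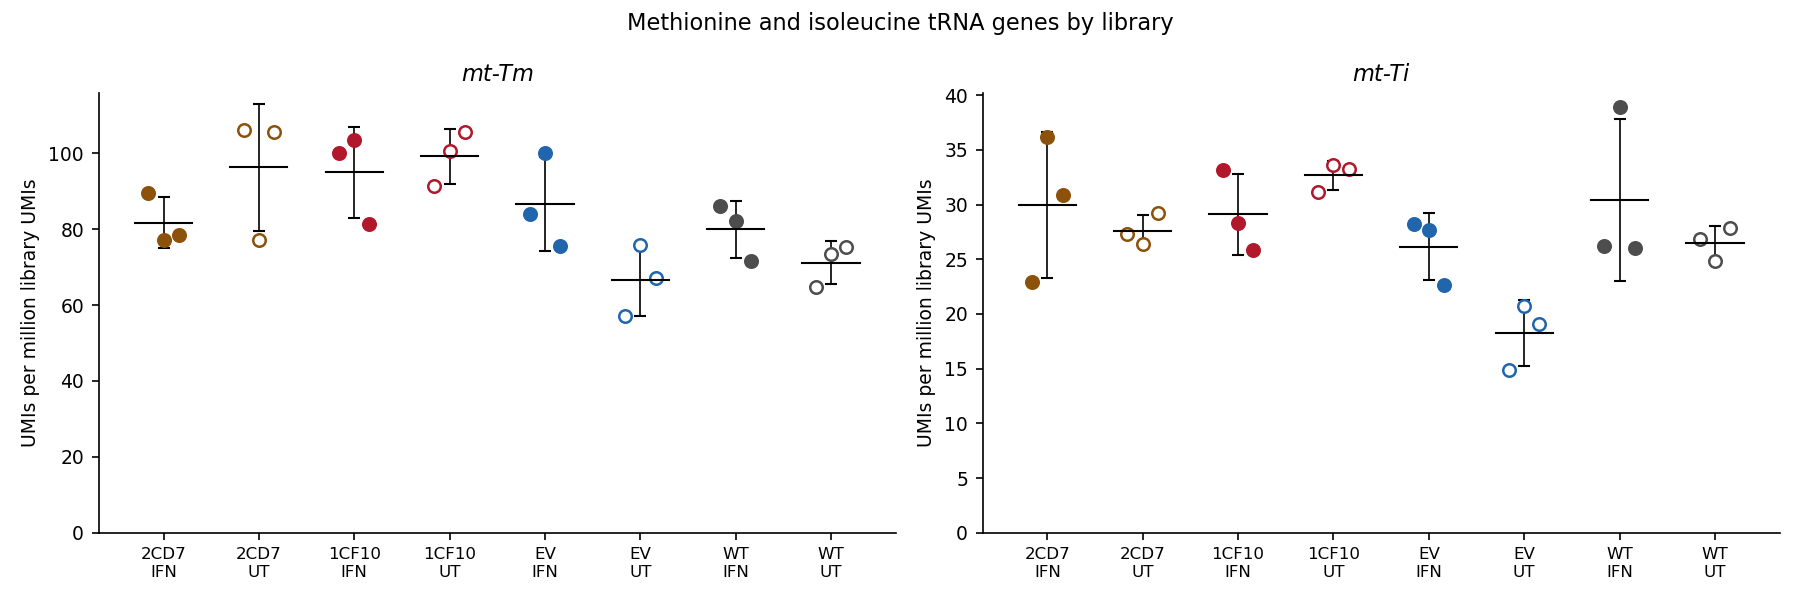
CPM of the methionine (mt-Tm) and isoleucine (mt-Ti) tRNA genes in every library by line, filled for IFN beta and open for untreated, with bars for the mean and SD of 3 libraries. Untreated EV was lowest for both genes, at 57.0 to 75.9 CPM for mt-Tm and 14.9 to 20.7 CPM for mt-Ti, and untreated 1CF10 had 91.4 to 105.6 and 31.2 to 33.6 CPM.

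The isoleucine tRNA gene mt-Ti was low in untreated EV. It had 27.3, 26.4 and 29.2 CPM in untreated 2CD7 and 31.2, 33.6 and 33.3 CPM in untreated 1CF10, against 14.9, 20.7 and 19.1 CPM in untreated EV and 26.8, 24.9 and 27.9 CPM in untreated WT. No EV library reached a library of another untreated line, and 1CF10 lay above WT as well. mt-Ti was higher than in EV by 0.82 ± 0.17 in 1CF10 (edgeR adjusted p = 0.000436), which held without any of the 6 libraries. In 2CD7 it was higher by 0.60 ± 0.18 (edgeR adjusted p = 0.0202), and the call ended without untreated 2CD7 library 1 or 3 (0.60 and 0.55, edgeR adjusted p = 0.0531 and 0.0945) or untreated EV library 1 (0.45, edgeR adjusted p = 0.191). EV differed from WT by -0.54 ± 0.18 (edgeR adjusted p = 0.0349), lost without untreated EV library 1 or 3 (-0.40 and -0.58, edgeR adjusted p = 0.23 and 0.0584) or untreated WT library 1 or 3 (-0.53 and -0.49, edgeR adjusted p = 0.0806 and 0.149). With IFN beta no difference between lines was called for mt-Ti.

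The other tRNA genes were counted with few UMIs. mt-Td (aspartate tRNA), with 228 UMIs over all libraries, had 10.8, 5.32 and 4.54 CPM in treated 2CD7. It had 1.67, 2.91 and 3.8 CPM in 1CF10 with IFN beta, and 5.72, 4.37 and 8.97 CPM in treated EV. Treated 2CD7 library 1 and treated EV library 3 stood above the rest. Its differences of 1.33 ± 0.41 between treated 2CD7 and 1CF10 and of -1.25 ± 0.41 between treated 1CF10 and EV passed (edgeR adjusted p = 0.0163 and 0.0239). Without treated 1CF10 library 1 these were 1.05 and -0.99 (edgeR adjusted p = 0.111 and 0.128), without treated 2CD7 library 1 the first was 0.86 (edgeR adjusted p = 0.233), and without treated EV library 3 the other was -0.94 (edgeR adjusted p = 0.189). The fold change of 1.38 ± 0.43 in EV (edgeR adjusted p = 0.0448) was called only with all 6 libraries or without treated EV library 2, and was 1.08 with edgeR adjusted p = 0.327 without treated EV library 3. mt-Tw (tryptophan), mt-Tt (threonine) and mt-Tp (proline, on the minus strand) had 187, 318 and 278 UMIs over all libraries, group means of 1.66 to 4.80, 3.64 to 7.86 and 3.38 to 5.53 CPM, and no call in any of the 19 comparisons.

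The rRNA genes were called in none of the 19 comparisons. The large rRNA mt-Rnr2 had 5679, 5431 and 8504 CPM in treated 1CF10, against 7468, 5239 and 9361 CPM in treated WT. These groups overlapped. Over the 8 groups, the highest library exceeded the lowest by a median factor of 1.34 and by up to 1.87 in treated 2CD7. The log2 difference was -0.27 ± 0.23 with a 95% interval of -0.77 to 0.23. The small rRNA mt-Rnr1 averaged 1268 ± 370.0 CPM in treated 1CF10 and 1484 ± 58.7 CPM in treated WT, a difference of -0.33 ± 0.16 (edgeR adjusted p = 0.146). The biological coefficient of variation that edgeR fitted was 0.198 for mt-Rnr2 and 0.137 for mt-Rnr1, against 0.064 for mt-Nd2, 0.08 for mt-Co3 and a median of 0.071 over all tested genes. It was 0.201 for mt-Nd5 and 0.179 for mt-Nd4l, the most variable of the mRNAs called in this comparison. The median difference of the mRNAs, -0.69, lies inside the interval of mt-Rnr2.

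mt-Atp8 varied most of all, with a coefficient of 0.495, which is above that of 99.9% of tested genes. It had 42.8, 98.2 and 14.97 CPM in treated 2CD7 and 82.5, 29.5 and 35.9 CPM in untreated 2CD7. Within groups its highest library exceeded its lowest by a median factor of 2.42 and up to 6.56. In all 8 groups the library with the most mt-Atp8 was the one with the most mt-Rnr2, and the library with the least mt-Atp8 the one with the least mt-Rnr2, a match noticed in the data.

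**Figure D5:**
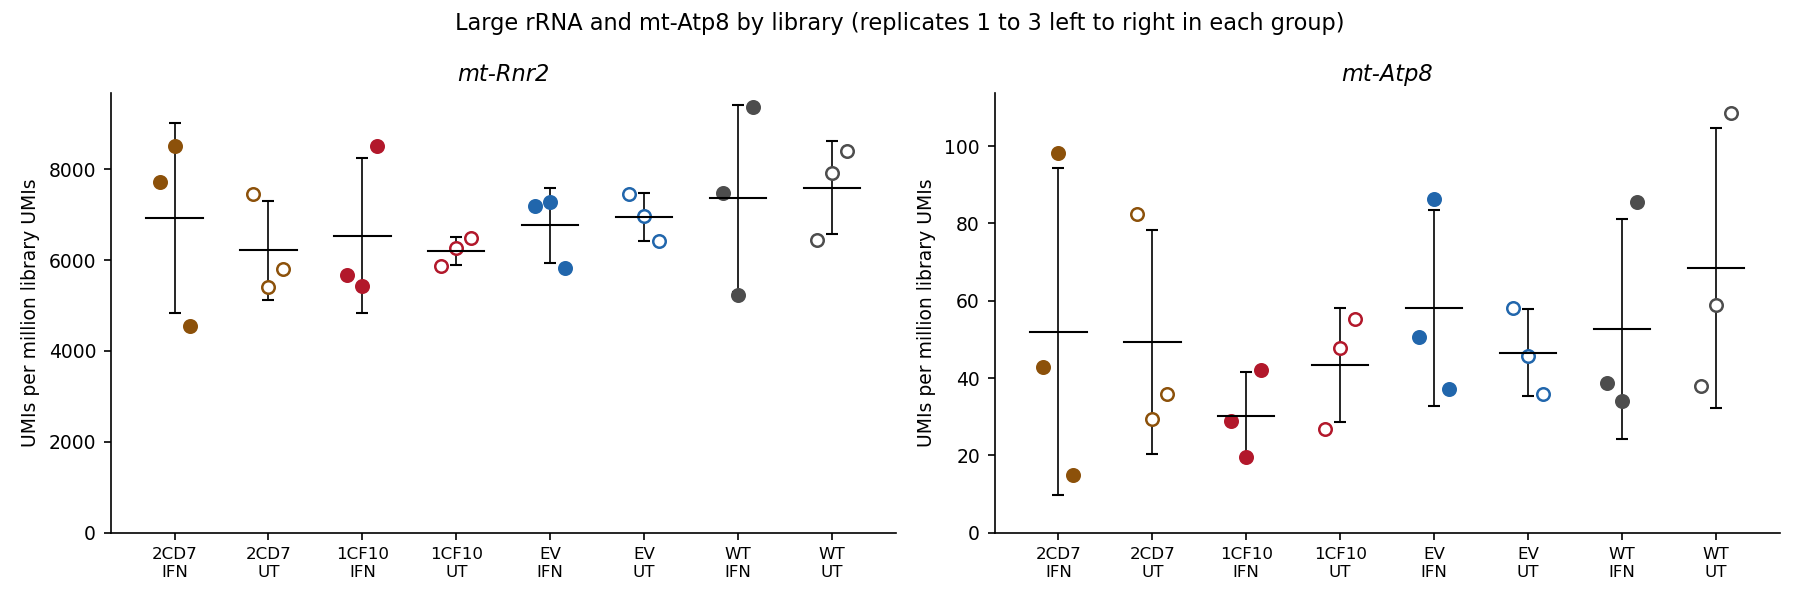
CPM of the large rRNA mt-Rnr2 and of mt-Atp8 in every library by line, with replicates 1 to 3 from left to right in each group, filled for IFN beta and open for untreated, and bars for the mean and SD. In treated 2CD7, library 2 was highest for both genes (8515 and 98.2 CPM) and library 3 lowest (4550.1 and 14.97 CPM).

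The nuclear copies were lowest in treated 1CF10 as well. Of the 11 copies, 8 were lower in treated 1CF10 than in treated WT (median log2 difference -0.69), 6 were lower than in treated EV (-0.46), and 7 were higher in treated 2CD7 than in treated 1CF10 (0.40), beside 17.2% lower, 11.0% lower and 8.57% higher among all tested genes. In untreated cells 5 were lower in 1CF10 than in WT and 1 lower than in EV, beside 10.7% and 6.58% of all tested genes. With IFN beta 1 copy was called, in WT, where Gm13341 was higher by 0.38 ± 0.10 (edgeR adjusted p = 0.0142). Copies and genes may hold the same tags, so these counts do not add to those of the mRNAs. Gm29216, the copy of the end of mt-Co1, had 1100.3, 497 and 514 CPM in treated 2CD7, against 221, 195 and 409 CPM in untreated 2CD7, and 569, 466 and 1028 CPM in treated EV, against 354, 316 and 386 CPM in untreated EV. It was highest in treated 2CD7 library 1 and treated EV library 3, the libraries in which mt-Td was highest.

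Nuclear genes of mitochondrial function were set beside these results. Of 79 tested nuclear subunits of the respiratory chain and ATP synthase (83 in the list), 49 were lower and 2 higher in treated 1CF10 than in treated WT, with a median log2 difference of -0.22, beside 17.2% lower among all tested genes. Without TMM scaling, on library totals, 30 were lower, and the median over all tested genes was then 0.106 in place of 0.0121. The other lines also had called genes below WT: 17 lower and 0 higher in treated 2CD7 (median -0.15), 23 lower and 3 higher in treated EV (-0.14), 1 lower in untreated 2CD7 and 10 lower and 3 higher in untreated EV. The shares called lower among all tested genes were 8.31%, 10.4%, 1.86% and 6.98% in the same order. In treated 1CF10 against EV 19 were lower and 3 higher, beside 11.0% lower among all tested genes. In untreated 1CF10, 26 were lower and 2 higher than in WT (10.7% of all tested genes lower), and 17 lower without untreated 1CF10 library 1. Against untreated EV 11 were lower and 3 higher (6.58% of all tested genes lower), and 7 lower without untreated 1CF10 library 1 or 3 or untreated EV library 2 or 3. Ndufa3 of complex I averaged 252 ± 4.67 CPM in untreated 1CF10 and 416 ± 5.46 CPM in untreated WT, and Cox6b1 of complex IV averaged 338 ± 7.87 CPM in untreated 1CF10 and 513 ± 5.72 CPM in untreated WT. Neither pair of groups overlapped, with log2 differences of -0.75 ± 0.06 and -0.62 ± 0.06 (edgeR adjusted p = 3.89e-14 and 4.23e-12), and Atp5mpl of the ATP synthase differed by -0.63 ± 0.08 (edgeR adjusted p = 9.02e-09). None of the 79 was called in the response to IFN beta in any line by edgeR. Between the clones, 13 were higher and 0 lower in treated 2CD7 than in treated 1CF10, beside 8.57% higher among all tested genes. Untreated, 9 were higher and 1 lower in 2CD7, beside 7.82% higher among all tested genes. Of 77 mitochondrial ribosomal proteins, 15 were higher and 8 lower in treated 1CF10 than in treated WT, beside 14.8% higher and 17.2% lower among all tested genes.

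Among genes that maintain mitochondrial RNA, Slirp was lower in 1CF10. Slirp binds mitochondrial mRNAs together with Lrpprc and stabilises them. It averaged 134 ± 16.8 CPM in treated 1CF10, against 179 ± 7.39 CPM in treated EV and 172 ± 6.23 CPM in treated WT, and 133 ± 5.37 CPM in untreated 1CF10, against 177 ± 21.6 CPM in untreated EV and 170.3 ± 6.79 CPM in untreated WT. No 1CF10 library reached a control library of the same treatment. Its log2 difference with IFN beta was -0.49 ± 0.09 against EV and -0.46 ± 0.09 against WT (edgeR adjusted p = 8.49e-06 and 1.74e-05). Untreated it was -0.43 ± 0.09 against EV and -0.37 ± 0.09 against WT (edgeR adjusted p = 0.000156 and 0.000824), and all 4 calls held without any single library. In 2CD7 Slirp was not called against either control. Lrpprc was higher in untreated 1CF10 than in untreated WT, by 0.33 ± 0.11 (edgeR adjusted p = 0.0306), and the call was lost without untreated 1CF10 library 2 or 3 (0.23 and 0.31, edgeR adjusted p = 0.243 and 0.0976) or untreated WT library 1 or 2 (0.30 and 0.33, edgeR adjusted p = 0.102 and 0.0736). Of the 22 tested genes for mitochondrial RNA processing and decay, 5 were higher and 2 lower in treated 1CF10 than in treated WT, where 14.8% of all tested genes were higher and 17.2% lower.

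Ppargc1a, a coactivator of mitochondrial biogenesis, was lower in 1CF10. It is among the 16 tested genes of a list for mitochondrial import and mass. Of these, 5 were higher and 1 lower in treated 1CF10 than in treated WT, beside 14.8% higher and 17.2% lower among all tested genes. Untreated, 4 were higher and 2 lower than in WT (8.77% and 10.7%). Against EV, 0 were higher and 3 lower treated (8.05% and 11.0%), and 0 higher and 4 lower untreated (3.74% and 6.58%). Ppargc1a averaged 6.85 ± 2.33 CPM in untreated 1CF10, 12.8 ± 1.08 CPM in untreated EV and 23.8 ± 5.33 CPM in untreated WT. The log2 difference of 1CF10 from WT was -1.80 ± 0.24 untreated and -1.57 ± 0.24 treated (edgeR adjusted p = 2.44e-08 and 3.83e-07). In untreated 2CD7 it averaged 13.9 ± 5.26 CPM and also differed from WT, by -0.80 ± 0.21 (edgeR adjusted p = 0.0175). That call was lost without untreated 2CD7 library 1 or 2 (-0.58 and -0.74, edgeR adjusted p = 0.212 and 0.082) or untreated WT library 3 (-0.57, edgeR adjusted p = 0.298). In 1CF10 the difference from EV was -0.96 ± 0.27 treated and -0.88 ± 0.27 untreated (edgeR adjusted p = 0.00622 and 0.0216), the untreated call being lost without untreated 1CF10 library 1 or 2 (-0.71 and -0.83, edgeR adjusted p = 0.12 and 0.0776) or untreated EV library 1 (-0.82, edgeR adjusted p = 0.0869). Tfam, which packages mitochondrial DNA and starts its transcription, and Polrmt, the mitochondrial RNA polymerase, were called in none of the 19 comparisons. Tfam averaged 42.7 ± 5.08 CPM in treated 1CF10 and 38.8 ± 4.55 CPM in treated WT, and Polrmt 16.5 ± 1.38 CPM in treated 1CF10 and 20.4 ± 5.51 CPM in treated WT. The part of these nuclear genes in the levels of the mitochondrial mRNAs was not tested. Ndufa3, Cox6b1, Atp5mpl, Slirp and Ppargc1a were singled out after their values were seen.

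Oligoadenylate synthetase genes, sensors of double-stranded RNA, rose with IFN beta in the controls. No mitochondrial mRNA was called lower in those libraries, and a link between these results was not tested. Of 7 tested genes of a list of the synthetases and Abce1 (13 in the list), 6 were higher with IFN beta in EV and 6 in WT, and 0 in either clone, where edgeR called no tested gene. Among all tested genes 3.89% were called higher in EV and 5.16% in WT. Oasl1, a synthetase-like gene, averaged 181 ± 21.1 CPM in treated and 12.1 ± 2.8 CPM in untreated EV, and 195 ± 30.5 CPM in treated and 9.33 ± 7.69 CPM in untreated WT. No untreated library of either line reached a treated one. Its log2 fold change was 3.93 ± 0.24 in EV and 4.50 ± 0.25 in WT (edgeR adjusted p = 1.7e-10 and 3.76e-11). Pnpt1, a mitochondrial exonuclease that degrades RNA, averaged 35.0 ± 1.44 CPM in treated and 15.4 ± 0.4 CPM in untreated EV, and 51.8 ± 8.19 CPM in treated and 17.6 ± 0.55 CPM in untreated WT. Its log2 fold change was 1.22 ± 0.17 in EV and 1.61 ± 0.16 in WT (edgeR adjusted p = 8.39e-08 and 7.74e-13), and 0.11 in 1CF10 and -0.12 in 2CD7, where it was not called. Cmpk2, a mitochondrial nucleotide kinase, rose by 5.33 ± 0.20 in EV and 6.74 ± 0.21 in WT on the log2 scale (edgeR adjusted p = 2.92e-14 and 1.35e-15). Twnk, the mitochondrial DNA helicase, fell by 0.44 ± 0.14 on the log2 scale in WT (edgeR adjusted p = 0.0464), with 46.1 ± 11.2 CPM in treated and 65.6 ± 7.21 CPM in untreated WT. That call was kept only without treated WT library 2, with -0.48 to -0.27 and edgeR adjusted p of 0.0611 to 0.376 without any of the other 5.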

How the data were processed

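Poly(A)-primed, multiplexed 3′ libraries were made from 24 samples, and the deposited table holds raw UMI counts per gene, per the file headers. Builds and tools are named by the submitters' processing notes as GRCm38, cutadapt 3.0 and, in R (3.6.2, 4.1.2), limma 3.50.0 with edgeR 3.36.0. The aligner, the strand counted and the treatment of tags matching several places are not given in the sources used here. From the deposited counts, 11698 genes were kept by edgeR's filterByExpr (minimum count 10, minimum total 15) of 24614. They were fitted in R 4.3.3 with edgeR 4.0.16 (TMM scaling, robust quasi-likelihood, 8 group means over all 24 libraries), with 19 comparisons and Benjamini-Hochberg adjustment over all tested genes at 0.05. CPM values are UMIs per 1000000 UMIs of a library, without TMM. Log2 differences carry standard errors from the fit. Precision follows depth, 1972192 to 3097331 UMIs per library.

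Every mitochondrial gene past the filter is named. Of each nuclear list, up to 4 called genes, Pnpt1, Tfam, Polrmt, Twnk and Lrpprc could be named, and others are stated as chosen after their values were seen. A gene of the nuclear lists is not reported here. The members and lists were chosen with earlier results of these data known. Nuclear copies were found with blastn against GENCODE M21 transcripts, by at least 200 aligned bases and 95% identity. The alternatives were RLE scaling, library totals, totals without mitochondrial genes, no filter, a minimum count of 30, a replicate block, only the groups compared, DESeq2 1.42.0, each library left out, and copies summed in. The fit was also run on simulated counts with the same spread for every gene and changes set in treated WT only. That run does not cover genes as variable as mt-Rnr2, mt-Nd5 or mt-Atp8. No replicate pair agreed within sampling noise (chi-square per gene 1.42 to 4.89 over 24 pairs).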

Additional observations from a re-analysis of the deposited data

Results flagged for a closer look

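The response to IFN beta in the 2 clones minus that in the 2 controls differed by the edgeR test of the difference itself for 4 of the genes named. For mt-Tm it was -0.49 on the log2 scale (edgeR adjusted p = 0.00801), with log2 fold changes of -0.25 in 2CD7, -0.08 in 1CF10, 0.42 in EV and 0.22 in WT. For Pnpt1 it was -1.42 (edgeR adjusted p = 3.27e-09), for Cmpk2 -5.68 (edgeR adjusted p = 1.37e-06), and for Oasl1, an oligoadenylate synthetase-like gene, -3.95 (edgeR adjusted p = 8.99e-06). In these 3 nuclear genes the controls rose and neither clone was called. For mt-Tm the difference also holds the levels of the untreated lines, which were higher in the clones.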

How the results depend on the processing

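The 104 gene differences followed were those called in the main fit, 58 of mitochondrial and 46 of named nuclear genes. The refits reuse the same counts, so the lack of a reversal is no independent check. None reversed: 565 of 696 values without 1 library and 879 of 926 values under other settings kept direction and call. The other 131 and 47 fell short of the threshold. The number of mRNAs called without 1 library ran, with IFN beta, from 8 to 10 for 1CF10 against WT, 6 to 8 for 1CF10 against EV, 2 to 7 for 2CD7 against 1CF10, 1 to 4 for 2CD7 against WT, 1 to 2 for 2CD7 against EV and 1 to 3 for EV against WT. Untreated, it ran from 4 to 8 for 1CF10 against WT, 0 to 2 for 1CF10 against EV, 1 to 4 for 2CD7 against 1CF10, 0 to 1 for 2CD7 against WT, 0 to 0 for 2CD7 against EV and 0 to 3 for EV against WT. For the response it ran from 0 to 1 in EV, 0 to 2 in WT, 0 to 0 in either clone, 0 to 1 for clones minus controls and 0 to 0 for EV minus WT and 2CD7 minus 1CF10. Nuclear respiratory chain genes called lower in 1CF10 ran from 38 to 52 (treated, WT), 16 to 26 (treated, EV), 17 to 26 (untreated, WT) and 7 to 9 (untreated, EV), and oligoadenylate synthetase list genes from 6 to 6 in EV and WT. On library totals without TMM, mRNA counts were 0 for the EV response (1 with TMM), 1 for untreated 2CD7 against 1CF10 (2), 1 for treated 2CD7 against WT (4) and 2 for treated EV against WT (4), and nuclear respiratory chain genes lower in treated 1CF10 than WT numbered 30 (49). RLE scaling gave 2, and totals without mitochondrial genes gave 2, for treated EV against WT, and totals without mitochondrial genes gave 1 for treated 2CD7 against EV (2). Without the filter the counts were 2 for the EV response, 3 for the WT response (0), 3 for clones minus controls (0), 1 for untreated 2CD7 against EV (0), 1 against WT (0), 2 for untreated EV against WT (0), 5 for untreated 2CD7 against 1CF10, and 6 respiratory chain genes lower in untreated 1CF10 than EV (11). With only the groups compared they were 1 for the WT response, 6 for untreated 1CF10 against EV (2), 1 for untreated 2CD7 against WT, 4 for untreated 2CD7 against 1CF10, 1 for treated 2CD7 against EV and 7 for treated EV against WT. DESeq2 gave 1 for the WT response and 1 for treated 2CD7 against EV. With copies summed in, the counts were 0 for the EV response, 4 for untreated 1CF10 against EV, 1 for untreated EV against WT and 2 for treated EV against WT. Replicate numbers did not pair the libraries (mean correlation 0.0151 over 84 pairs of same-numbered libraries, -0.0075 otherwise, 6 of 24 closest to their own number), and the replicate block gave 0 for the EV response and 1 for the WT response. Without rRNA genes the mitochondrial share was 0.657% in treated and 0.607% in untreated 2CD7, 0.512% and 0.527% in 1CF10, 0.674% and 0.614% in EV, and 0.746% and 0.683% in WT; with copies it was 2.31% and 2.12%, 1.94% and 1.96%, 2.39% and 2.23%, and 2.56% and 2.43% in the same order. Without 1 library the share of all mitochondrial genes ran from 1.39% to 1.62% in treated and 1.2996% to 1.434% in untreated 2CD7, 1.16% to 1.36% and 1.23% to 1.29% in 1CF10, 1.42% to 1.54% and 1.42% to 1.45% in EV, and 1.53% to 1.76% and 1.4986% to 1.633% in WT. The causes were not tested. Depth limits the 16 tRNA genes not tested, and mt-Nd6, mt-Nd4l, mt-Tw, mt-Td, mt-Tt and mt-Tp, whose intervals are wide.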

Other observations

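The share of UMIs in tRNA genes, all 22 together, was lowest in the untreated controls, at 0.0105% ± 0.0014 in untreated EV and 0.0123% ± 0.0009 in untreated WT, and 0.0137% to 0.0156% as a mean in each of the other 6 groups (SD, n = 3). The library with the highest mt-Nd5 was also the one with the highest mt-Rnr2 in 7 of 8 groups, and the lowest in 6 of 8. No share of all tested genes with such a match was taken. Besides mt-Atp8, the other mitochondrial genes compared matched for the highest library in 1 (mt-Nd3) to 6 (mt-Nd2) of 8 groups. For the lowest library they matched in 1 (mt-Nd3) to 6 (mt-Rnr1). The same match held for the highest and the lowest library in 6 and 7 of 8 groups for Mki67, a proliferation marker, 6 and 8 for Aspm, a spindle gene, and 6 and 5 for Nf1, a regulator of Ras, genes chosen after their values were seen.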
